A study of Mus musculus with 4 samples.

Results

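Serpins are a family of protease inhibitors and related proteins, and 33 of their genes were followed in bladder epithelial cells that lacked or carried the transcription factor p63. The members are all transcript clusters (gene-level probe groups of the array) whose only platform gene symbol is a Serpin clade letter from a to i with a number. They make up 33 of the 23332 transcript clusters measured, and each gene had a single cluster. RefSeq lists 69 genes with symbols of this form, so the counts here cover part of the family. Members were taken by symbol without a measured value, but the family was chosen with earlier results of these data known. The clades covered were A (10 genes), B (16), C (1), D (1), F (2), G (1) and I (2), and serpins of clades E and H were not analysed here.

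The p63 knockout group held 2 samples and the wild-type group 2 samples, each on its own Affymetrix Mouse Exon 1.0 ST array. Both groups were cells of C57BL/6j newborns, from bladders digested with collagenase, grown as epithelial stem cell colonies over 3T3 cells, a mouse fibroblast line that feeds them, and picked for RNA. The sources used here name no particular allele of the knockout, no sex of the pups, and no pooling or separate litters. The p-values therefore measure the spread between these arrays, which may be technical. In picked colonies, fewer cells of a type and less RNA per cell cannot be told apart.

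An inhibitory serpin offers its target protease an exposed loop as bait. When the protease cuts the loop, the serpin snaps into another fold and drags the enzyme with it, so that both are spent. Clade A serpins are mostly secreted and many are plasma proteins made by the liver, whereas clade B serpins lack a classical signal peptide, act largely inside cells and include many genes of stratified epithelia. Some members, such as maspin (Serpinb5) and pigment epithelium-derived factor (Serpinf1), keep the fold but do not inhibit proteases.

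The arrays carried epithelial RNA in both groups. Of 10 measured general epithelial markers all had group means above a guide level for silent genes, the 95th percentile of 719 olfactory receptor clusters (5.08 on the log2 scale). This guide is close to the middle of each array's values (medians 5.08 to 5.13), so a gene below it need not be silent. Their median level was 8.09 and 8.28 on the knockout arrays and 8.52 and 8.50 on the wild-type arrays. The median of their differences was -0.80, and 0 passed the limma test. At an unadjusted p under 0.05, 7 were lower and 1 higher, beside 7.7% and 14.6% of all clusters. Of 12 basal and superficial urothelial markers, 11 fell in the knockout by limma, beside 0.386% of all clusters called lower. The superficial keratin Krt20 differed by 2.10 without passing (9.64 and 8.72 in the knockout, against 7.04 and 7.13 in the wild type, limma adjusted p = 0.096). The median level of the 12 was 5.10 and 4.86 on the knockout arrays, against 8.92 and 9.17 on the wild-type arrays. Trp63, the gene knocked out, was at 4.60 and 4.74 on the knockout arrays, against 8.98 and 8.99 on the wild-type arrays. The 15 measured fibroblast and feeder cell markers had a median of 7.10 and 7.81 in the knockout, against 7.88 and 7.23 in the wild type, and 14 of the 15 had a group mean above the guide level. Of 2 measured Y-linked genes, Eif2s3y was at 3.58 and 3.02 in the knockout, against 7.43 and 8.11 in the wild type, so that sex and genotype cannot be told apart here. The knockout arrays correlated at 0.93 with each other over all clusters and the wild-type arrays at 0.98. The 33 serpins gave 0.88 and 0.97, a description across genes that share their arrays.

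One serpin, Serpinb1b, rose in the knockout, and none of the 33 fell (limma, adjusted p under 0.05 by the Benjamini-Hochberg method across the whole table). That is 3.03% of the family, read against 0.527% of all clusters called, 0.141% called higher and 0.386% called lower. At an unadjusted p under 0.05, 11 serpins were higher and 2 lower, or 33.3% and 6.06% of the family. Of all clusters 14.6% were higher and 7.7% lower, and of the 719 olfactory receptors 187 were higher and 7 lower. The count of 13 serpins in either direction was 6 after quantile normalization and 6 after cyclic loess. Both knockout arrays lay above both wild-type arrays for 21 serpins and below them for 5. That is 63.6% and 15.2%, beside 36.2% and 20.9% of all clusters. Among the 719 olfactory receptors 362 lay above and 38 below. With a difference of at least 1 on the log2 scale besides, 5 serpins lay above and 3 below. These are 15.2% and 9.09%, beside 6.96% and 3.67% of all clusters.

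Much of the surplus of small positive differences lay in dim genes. Differences were positive for 26 of the 33 serpins (78.8%), beside 60.3% of all clusters. The median difference (knockout minus wild type, log2) was 0.39 over the serpins and 0.12 over all clusters. Of the 33 serpins, 21 had means at or below the guide level in both groups, with a median difference of 0.50. The 10464 clusters of the array that met the same condition had a median of 0.27, and the olfactory receptors one of 0.47. After quantile normalization the median of those 21 serpins was 0.02, and after cyclic loess it was -0.0088. Between the deposited values and these scalings 9 serpins turned sign, all of them among the 21. In all 3 scalings 17 serpins were higher and 7 lower in the knockout. Of the other 12 serpins, 7 had means above the guide level in both groups, 3 in the knockout only and 2 in the wild type only.

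**Figure D1:**
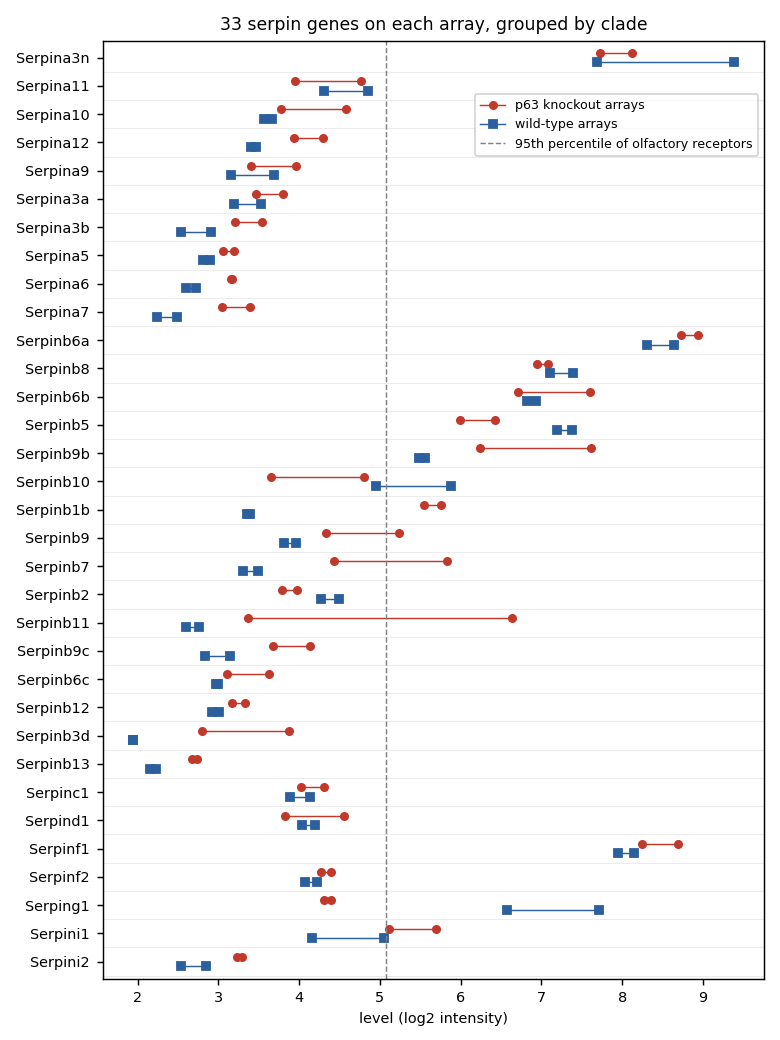
Level of each of the 33 serpin genes on the 2 knockout arrays (red circles, upper line of each row) and the 2 wild-type arrays (blue squares, lower line), in log2 intensity, grouped by clade. Lines join the arrays of a group and the dashed line is the guide level of 5.08. Serpinb1b and Serping1 show wide gaps between groups, whereas Serpinb11 and Serpinb9b spread between the knockout arrays.

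**Figure D2:**
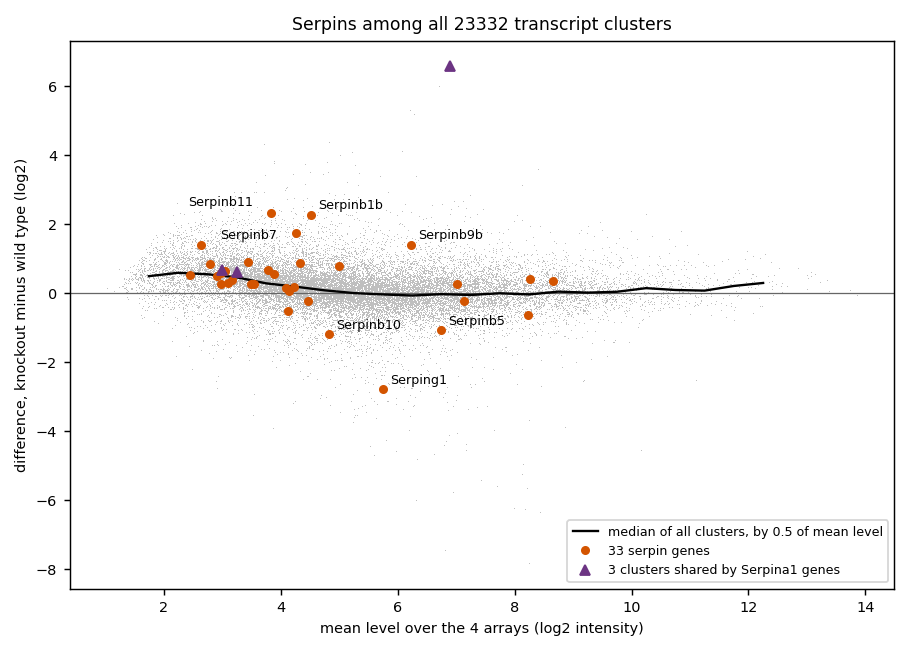
Difference (knockout minus wild type, log2) against mean level over the 4 arrays (log2 intensity) for all 23332 clusters (grey), with the 33 serpins in orange and 3 clusters shared by Serpina1 genes as purple triangles. The black line, the median of all clusters, lies above 0 at low levels, and the Serpina1 triangle at 6.60 tops the plot.

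Clade B held the called gene and most of the larger differences. Serpinb1b, a mouse paralogue of the leukocyte elastase inhibitor Serpinb1a, was at 5.76 and 5.55 on the knockout arrays and at 3.39 and 3.36 on the wild-type arrays. The groups were far apart and each was tight, with means of 5.66 ± 0.15 and 3.37 ± 0.02 (SD, n = 2 each). The difference was 2.28 on the log2 scale (95% interval 1.81 to 2.76, limma adjusted p = 0.038). The wild-type level was below the guide level and the knockout level above it. With any 1 array left out the difference stayed between 2.18 and 2.39, but the adjusted p ran from 0.075 to 0.42. A cluster annotated to both Serpinb1a and Serpinb1c was at 4.31 and 4.62 in the knockout, against 4.23 and 4.63 in the wild type, so the groups overlapped there.

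**Figure D3:**
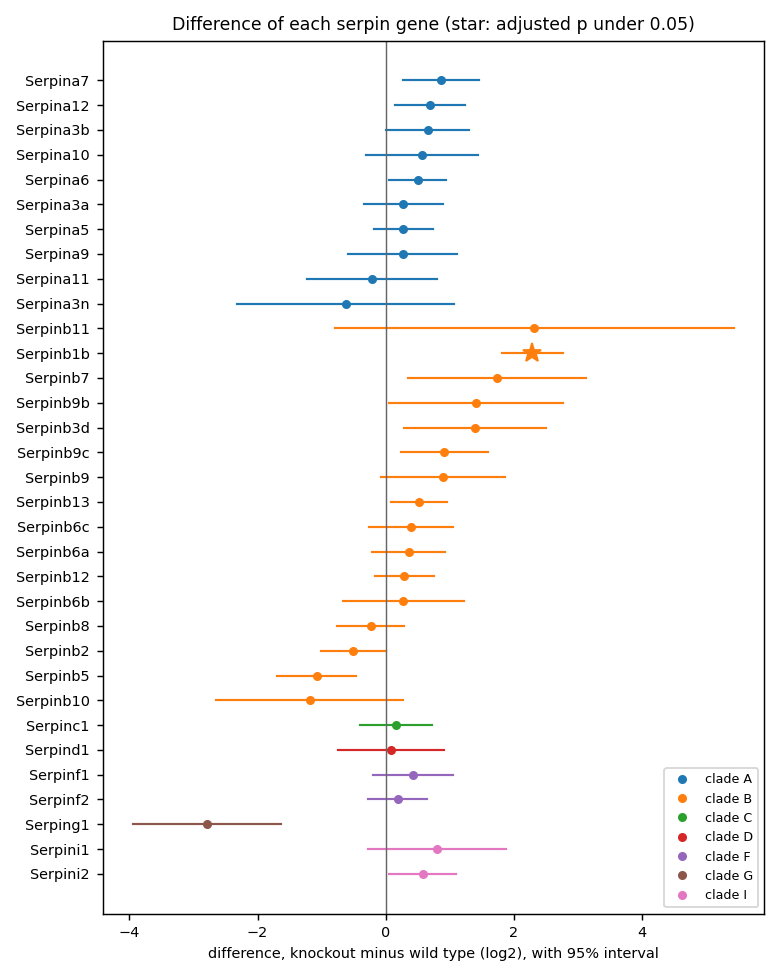
Difference of each serpin gene, knockout minus wild type on the log2 scale, with its 95% interval from the limma fit, coloured by clade. The star marks Serpinb1b at 2.28, the 1 gene past adjusted p 0.05, and the lowest point is Serping1 at -2.79.

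Other clade B genes of the same chromosomal cluster also lay higher in the knockout. Mouse clade B serpins sit in 2 clusters, on chromosome 13 and on chromosome 1 (RefSeq, GRCm38). All 7 genes measured on chromosome 13 had positive differences, beside 60.3% of all clusters. Their median was 0.89, beside 0.12 over all clusters. For 6 of them both knockout arrays lay above both wild-type arrays, as for 36.2% of all clusters. Serpinb9, Serpinb9c and Serpinb6c had means at or below the guide level in both groups, where 7735 of 10464 clusters had positive differences. Serpinb6c, a dim member, turned to -0.04 after quantile normalization and -0.02 after cyclic loess. Serpinb9b, which encodes an inhibitor of the lymphocyte protease granzyme M, was at 6.24 and 7.61 in the knockout, against 5.48 and 5.56 in the wild type. Knockout array 2 was the high one, the groups did not overlap, and the difference of 1.40 did not pass (95% interval 0.05 to 2.76, adjusted p = 0.22). With knockout array 1 left out it was 2.09, and with array 2 left out 0.72.

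Serpinb9, the inhibitor of granzyme B, was at 4.33 and 5.23 in the knockout, against 3.97 and 3.81 in the wild type, and Serpinb9c, its paralogue, was at 3.67 and 4.14, against 2.83 and 3.15. Neither passed (adjusted p = 0.25 and 0.16 by limma), and all their group means were at or below the guide level. Serpinb6a, an intracellular inhibitor of trypsin-like proteases and cathepsin G, was well above the guide level on every array, at 8.73 and 8.93 in the knockout, against 8.30 and 8.65 in the wild type. Its difference of 0.36 had an interval of -0.21 to 0.93, and was 0.19 without wild-type array 1 and 0.53 without wild-type array 2. Its paralogue Serpinb6b was at 7.60 and 6.71 in the knockout, against 6.94 and 6.82 in the wild type, where the groups overlapped. The paralogues of this cluster are close in sequence, so probes may read more than 1 of them. Another 4 clusters, each shared by several of Serpinb9d, Serpinb9e, Serpinb9f and Serpinb9g, had differences from -0.38 to 0.85 and group means below the guide level.

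In the deposited values the measured genes of the chromosome 1 cluster were divided by gene order. In gene order, Serpinb5 at one end was lower in the knockout, the next 5 measured genes (Serpinb12, Serpinb13, Serpinb3d, Serpinb11 and Serpinb7) were higher, and the last 3 (Serpinb2, Serpinb10 and Serpinb8) were lower. In none of these 9 genes did the groups overlap, 5 lying above and 4 below, beside 36.2% of all clusters above and 20.9% below. The dim genes Serpinb12 and Serpinb13 did not keep that direction in every scaling, at -0.14 and 0.02 after quantile normalization and -0.13 and -0.0088 after cyclic loess. Means were at or below the guide level in both groups for Serpinb12, Serpinb13, Serpinb3d, Serpinb11 and Serpinb2. Of the 10464 clusters of the array that met this condition, 4660 lay above without overlap and 962 below. None of the 9 serpins passed the limma test. There were 3 higher and 1 lower at an unadjusted p under 0.05, beside 14.6% and 7.7% of all clusters.

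Serpinb5, or maspin, an epithelial serpin that does not inhibit proteases, was at 6.42 and 6.00 in the knockout, against 7.20 and 7.38 in the wild type. Both groups stayed above the guide level. The difference was -1.08 (95% interval -1.70 to -0.46, limma adjusted p = 0.12), and adjusted p was 0.044 in a fit on means per gene, which averages a gene's clusters and leaves out clusters without a single symbol. Serpinb10, known as bomapin and best described in blood cells, was at 4.81 and 3.65 in the knockout, against 4.96 and 5.88 in the wild type, a difference of -1.19 (95% interval -2.65 to 0.27). It was -0.61 without knockout array 2 and -0.73 without wild-type array 2. Serpinb2, an inhibitor of the urokinase-type plasminogen activator, was at 3.79 and 3.97, against 4.27 and 4.50 in the wild type. Serpinb8, an inhibitor of furin, was at 6.94 and 7.08, against 7.10 and 7.39, with an interval of the difference of -0.76 to 0.29.

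The knockout arrays differed from each other in 3 of the genes between them, Serpinb11, Serpinb7 and Serpinb3d. Serpinb11, a clade B serpin of epithelia, was at 6.64 on knockout array 1 and 3.36 on knockout array 2, against 2.60 and 2.76 in the wild type. Only knockout array 1 was above the guide level, and the difference of 2.32 had an interval of -0.80 to 5.44. With knockout array 1 left out it was 0.68, and with array 2 left out 3.96. Serpinb7, whose human counterpart is mutated in a palmoplantar keratosis, was at 5.83 and 4.43 in the knockout, against 3.49 and 3.31 in the wild type (difference 1.73, 95% interval 0.34 to 3.13, limma adjusted p = 0.18). Without knockout array 1 its difference was 1.04, and without array 2 it was 2.43. Serpinb3d, a paralogue of the squamous cell carcinoma antigens, was instead higher on knockout array 2, at 2.79 and 3.88, against 1.94 and 1.94 in the wild type, all below the guide level. Its difference of 1.40 was 0.85 without knockout array 2. Between the knockout arrays 5 of the 33 serpins differed by more than 1, and 2 did so between the wild-type arrays.

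**Figure D4:**
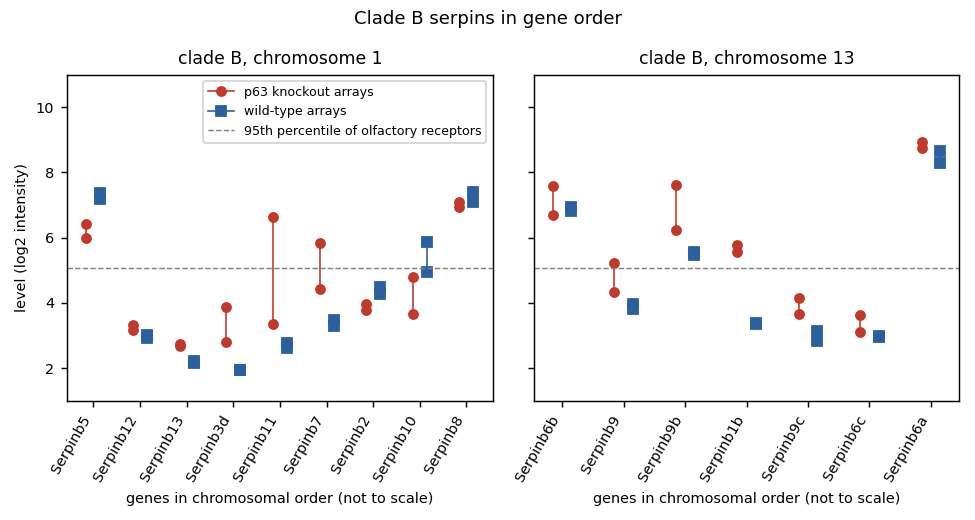
Levels (log2 intensity) of the clade B serpins of chromosome 1 (left) and chromosome 13 (right) in gene order, with knockout arrays as red circles and wild-type arrays as blue squares beside them. On chromosome 1 the knockout is lower at both ends and higher between, and on chromosome 13 it is higher for 6 of 7 genes with no overlap.

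A short motif stood in most promoters of the chromosome 1 cluster. RefSeq windows of 300 bases, from 250 before to 50 after a start site, were available for 28 of the 33 serpins, in 34 windows. A loose form of the AP-1 motif, TGANTCA with any base at N, was searched on both strands. It was present for 7 of 8 clade B genes with a window on chromosome 1 and for 0 of 7 on chromosome 13. Of all 27025 genes with a window, 8.97% held it, and of all 32851 windows, 7.81%. Serpinb7 and Serpinb8 held TGAGTCA, whereas Serpinb2, Serpinb5, Serpinb10, Serpinb11 and Serpinb12 held only TGAATCA or TGATTCA. The share of all genes was not counted for TGAGTCA alone. Genes of 1 cluster are paralogues and not independent. Serpinb3d was the chromosome 1 gene without a TGANTCA match, and genes on both sides of the division in expression carried one. The half-site bound by p53 family members, p63 included, was found in 1 of the 34 serpin windows, beside 8.36% of all windows. That match was in Serpina3n, AGACTTGTCC at 214 to 205 bases before the start. The motif AACCNGTT of grainyhead-like factors was found in 0 of them, beside 2.09% of all windows. Motif letters were matched exactly, the 2 overlapping windows of Serpinb2 shared 1 match, and no match shows binding.

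Of the chromosome 1 genes with a TGANTCA match, the 4 with the largest differences in either direction are shown, besides the called gene Serpinb1b. Their windows run 5′ to 3′ on the coding strand, with TGANTCA matches in capitals. They are Serpinb5 (chr1:106860925-106861224), Serpinb11 (chr1:107362064-107362363), Serpinb7 (chr1:107422439-107422738), Serpinb10 (chr1:107528753-107529052) and Serpinb1b (chr13:33083853-33084152), all on the plus strand of GRCm38.p6, from RefSeq.
Serpinb5: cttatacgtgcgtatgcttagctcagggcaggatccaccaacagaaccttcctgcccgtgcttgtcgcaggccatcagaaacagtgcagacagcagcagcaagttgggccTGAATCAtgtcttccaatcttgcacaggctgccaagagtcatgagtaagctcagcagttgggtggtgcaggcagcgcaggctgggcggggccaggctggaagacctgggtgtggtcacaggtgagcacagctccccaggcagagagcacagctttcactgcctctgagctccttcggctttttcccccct
Serpinb11: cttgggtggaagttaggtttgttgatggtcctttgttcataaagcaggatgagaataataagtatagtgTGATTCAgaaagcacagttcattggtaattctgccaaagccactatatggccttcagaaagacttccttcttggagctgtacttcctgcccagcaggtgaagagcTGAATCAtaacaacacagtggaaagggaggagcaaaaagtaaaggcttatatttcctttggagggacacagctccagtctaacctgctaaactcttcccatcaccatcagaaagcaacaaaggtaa
Serpinb7: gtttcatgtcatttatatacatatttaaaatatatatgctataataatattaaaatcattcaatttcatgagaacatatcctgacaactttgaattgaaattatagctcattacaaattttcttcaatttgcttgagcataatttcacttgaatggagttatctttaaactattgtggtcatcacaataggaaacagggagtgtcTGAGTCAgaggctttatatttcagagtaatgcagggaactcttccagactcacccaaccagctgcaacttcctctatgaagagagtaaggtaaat
Serpinb10: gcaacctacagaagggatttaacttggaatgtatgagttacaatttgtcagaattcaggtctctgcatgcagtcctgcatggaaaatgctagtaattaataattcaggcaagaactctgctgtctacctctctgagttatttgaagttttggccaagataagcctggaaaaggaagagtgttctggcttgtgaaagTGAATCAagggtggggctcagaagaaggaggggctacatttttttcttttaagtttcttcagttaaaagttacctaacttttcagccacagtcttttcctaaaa
Serpinb1b: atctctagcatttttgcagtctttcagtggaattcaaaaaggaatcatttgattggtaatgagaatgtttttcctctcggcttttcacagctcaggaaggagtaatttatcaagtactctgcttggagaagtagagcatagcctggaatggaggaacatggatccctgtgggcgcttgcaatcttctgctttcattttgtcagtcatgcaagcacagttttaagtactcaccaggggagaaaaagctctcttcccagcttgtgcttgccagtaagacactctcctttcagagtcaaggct
In Serpinb7 the match stands 45 to 39 bases before the start and in Serpinb10 54 to 48 bases before it. Serpinb11 holds a pair, 181 to 175 and 76 to 70 bases before the start, and the Serpinb5 match lies 140 to 134 bases before it.

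Among the secreted serpins of clade A, 9 of 10 members were at or below the guide level in both groups. Serpina3n, an acute-phase inhibitor related to human antichymotrypsin, was the exception, at 7.72 and 8.12 in the knockout, against 9.39 and 7.69 in the wild type. Wild-type array 1 alone was high, and the groups overlapped. Its difference was -0.62 (95% interval -2.31 to 1.07), and 0.23 without wild-type replicate 1. The other 9, which include the hormone carriers Serpina6 and Serpina7, the protein C inhibitor Serpina5 and vaspin (Serpina12), had differences from -0.22 to 0.86. None passed. At an unadjusted p under 0.05, 14.6% of all clusters were higher, and 1935 of the 10464 clusters at or below the guide level in both groups. Of these 9 serpins 4 reached it, all higher (Serpina3b, Serpina6, Serpina7 and Serpina12). After quantile normalization these 4 were at 0.21, 0.03, 0.39 and 0.41.

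A further clade A signal lay outside the 33 genes. Alpha-1-antitrypsin, the main elastase inhibitor of plasma, is encoded in the mouse by several near-identical Serpina1 genes, and 3 clusters were annotated to Serpina1a, Serpina1b, Serpina1c, Serpina1d and Serpina1e together. One of them was at 11.64 and 8.77 on the knockout arrays and at 4.31 and 2.90 on the wild-type arrays. Both knockout arrays were far above the guide level and both wild-type arrays below it. The difference of 6.60 was the largest increase among the 23332 clusters, and the third largest difference in either direction. It did not pass the test (95% interval 3.56 to 9.64, limma adjusted p = 0.096), and the knockout SD was 2.03. Without any 1 array it ran from 5.16 to 8.04. The other two clusters of these genes were at 3.37 and 3.73 and at 3.17 and 3.51 in the knockout, against 3.03 and 2.85 and 2.58 and 2.77 in the wild type, all below the guide level. Which of the 5 genes the signal comes from cannot be read from these clusters. Of 9 measured hepatocyte markers, 8 were at or below the guide level in both groups. Albumin (Alb) was at 3.84 and 4.13 in the knockout, against 3.71 and 3.70 in the wild type. Apoa2 was above the guide level, at 6.00 and 5.20, against 5.82 and 5.86. Without overlap, 6 of the 9 lay above and 0 below, beside 36.2% and 20.9% of all clusters. Among the 10464 clusters at or below the guide level, 4660 lay above and 962 below. In the limma test 0 of the 9 passed. The part of this marker list in the Serpina1 signal was not tested.

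Serping1, the only clade G serpin and the inhibitor of the complement protease C1, had the lowest difference of the family. It was at 4.30 and 4.40 on the knockout arrays, against 7.71 and 6.57 on the wild-type arrays. The knockout values were below the guide level and both wild-type values above it. The difference was -2.79 (95% interval -3.95 to -1.63), and it missed the threshold (limma adjusted p = 0.087). It passed where clusters below the median level were left out (adjusted p = 0.039) and in a fit on means per gene, which averages a gene's clusters and leaves out clusters without a single symbol (adjusted p = 0.022). Without wild-type replicate 1 it was -2.22, and without wild-type replicate 2 it was -3.36. Of 12 measured endothelial markers, 6 were lower in the knockout without overlap, 5 overlapped and 1 (Kdr) was higher without overlap. Of all clusters, 20.9% lay below and 36.2% above without overlap. In the limma test 0 of the 12 passed. At an unadjusted p under 0.05, 4 were lower and 0 higher, beside 7.7% and 14.6% of all clusters. Together the 12 markers had a summed intensity, given as its log2, of 8.10 and 7.91 in the knockout, against 9.21 and 8.49 in the wild type. Both group means were at or below the guide level for 6 of them. Pecam1 differed by -1.84 (4.63 and 4.29 in the knockout, against 6.94 and 5.67 in the wild type), whereas Kdr differed by 0.22, Tie1 by 0.07, Vwf by -0.07 and Eng by -0.11. Of the 15 fibroblast and feeder cell markers, 4 were lower and 2 higher without overlap, beside 20.9% and 36.2% of all clusters. The fibroblast proteoglycan genes Dcn (8.92 and 9.02 in the knockout, against 10.89 and 9.95 in the wild type) and Lum (4.02 and 2.66, against 6.36 and 4.98) were the 2 that reached an unadjusted p under 0.05 as lower, with adjusted p = 0.15 and 0.18 by limma. Vim was the 1 that reached an unadjusted p under 0.05 as higher, at 9.71 and 10.39, against 9.06 and 9.18 (adjusted p = 0.19 by limma). Over the 15 markers 9 differences were positive and 6 negative, with a median of 0.06. The part of either marker list in the Serping1 result was not tested.

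Clades F and I showed smaller differences. Serpinf1, a secreted factor that restrains vessel growth, was above the guide level on every array, at 8.25 and 8.69 in the knockout, against 7.95 and 8.14 in the wild type, with an interval of the difference of -0.20 to 1.05. Its difference of 0.42 was 0.20 without knockout array 2 and 0.64 without knockout array 1. Serpinf2, the plasmin inhibitor, was at 4.39 and 4.27, against 4.07 and 4.22 in the wild type. Serpini1, or neuroserpin, an inhibitor of the tissue-type plasminogen activator, was at 5.69 and 5.11 in the knockout, against 5.05 and 4.16 in the wild type, with an interval of -0.28 to 1.88. Its difference of 0.80 was 0.36 without wild-type array 2 and 1.24 without wild-type array 1. Serpini2 was at 3.24 and 3.30, against 2.84 and 2.54. The coagulation inhibitors Serpinc1 (antithrombin, 4.31 and 4.02 in the knockout, against 4.14 and 3.89) and Serpind1 (heparin cofactor II, 3.82 and 4.55, against 4.03 and 4.19) overlapped between groups and were below the guide level. Their small positive differences, 0.15 and 0.08, turned to -0.08 and -0.12 after quantile normalization.

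Proteases and other partners of serpins were also measured, and none passed the limma test. In the list of plasminogen activators, coagulation proteases and their receptors, 0 of 20 measured genes passed, and the median difference was 0.20. At an unadjusted p under 0.05, 4 were higher and 1 lower, beside 14.6% and 7.7% of all clusters. Tissue factor (F3), the trigger of coagulation, was at 8.26 and 8.51 in the knockout, against 6.61 and 6.27 in the wild type (difference 1.95, 95% interval 1.36 to 2.53, limma adjusted p = 0.064). The tissue-type plasminogen activator Plat, a target of Serpini1, was at 5.67 and 6.17 in the knockout, against 8.05 and 7.47 in the wild type (difference -1.84, 95% interval -2.68 to -0.99). The plasminogen-binding pair Anxa2 and S100a10 was above 9 on every array in both groups, with intervals of -0.82 to 0.48 and -0.25 to 0.83.

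Of 19 trypsin-like and neutrophil serine proteases, 0 passed, with a median of 0.24. There were 3 higher and 4 lower at an unadjusted p under 0.05, beside 14.6% and 7.7% of all clusters. Tmprss2, a membrane protease of epithelia, was at 6.98 and 5.82 in the knockout, against 10.13 and 10.05 in the wild type, far apart (difference -3.69, 95% interval -4.87 to -2.52, adjusted p = 0.066). Htra1, a secreted protease, was at 5.32 and 5.96, against 8.14 and 7.22. Matriptase (St14) was at 6.61 and 6.67 in the knockout, against 6.93 and 6.62 in the wild type. Neutrophil elastase (Elane) and cathepsin G (Ctsg), targets of clade A and B serpins, had group means below the guide level in both groups, as did the granzymes Gzma and Gzmb, all 4 chosen after their values were seen.

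Of 9 cysteine proteases, targets of some clade B members, 0 passed, with a median of 0.38. An unadjusted p under 0.05 was reached by 4 as higher and 3 as lower, beside 14.6% and 7.7% of all clusters. Cathepsin L (Ctsl) was at 11.36 and 11.47 in the knockout, against 10.62 and 10.64 in the wild type. Cathepsin B (Ctsb) was at 10.11 and 10.16, against 9.82 and 9.68. Cathepsin H (Ctsh) was at 8.56 and 7.89, against 9.52 and 9.48, and cathepsin K (Ctsk), a collagen-degrading enzyme, at 4.43 and 4.50, against 7.11 and 6.02. For Ctsk, as for Serping1, Pecam1, Dcn and Lum, wild-type array 1 was above wild-type array 2. These genes were set side by side after their values were seen. In the fibroblast and feeder cell list S100a4, Vim, Thy1 and Fn1 were lower on wild-type array 1 than on wild-type array 2. A cause of this was not tested.

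Of 19 protease inhibitors outside the family, 0 passed, with a median of 0.25. Before adjustment 4 were higher and 2 lower at p under 0.05, beside 14.6% and 7.7% of all clusters. Timp1, an inhibitor of matrix metalloproteinases, was at 7.36 and 7.56 in the knockout, against 5.85 and 5.74 in the wild type (difference 1.66, 95% interval 1.18 to 2.15, limma adjusted p = 0.062). Itih5, a hyaluronan-binding relative of plasma inhibitors, was at 4.19 and 3.98, against 6.54 and 5.44. Wfdc2 and cystatin C (Cst3) were high on all arrays, with intervals of the difference of -0.80 to 0.59 and -0.00061 to 1.02.

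The collagen folding list (15 measured, median 0.06) and the complement list (9 measured, median 0.23) also had 0 calls by limma. Collagen folding had 2 higher and 0 lower at an unadjusted p under 0.05, and complement 1 and 1. The shares over all clusters were 14.6% and 7.7%. Plod2, which hydroxylates collagen lysines, was at 7.59 and 7.41 in the knockout, against 6.15 and 6.07 in the wild type (adjusted p = 0.070). P4ha3, a subunit of prolyl hydroxylase, was at 5.67 and 5.91, against 4.87 and 5.06, whereas P4hb and Sparc had intervals of -0.30 to 1.06 and -0.53 to 1.34. Cd55, a surface protein that speeds the decay of complement convertases, was at 7.77 and 7.68 in the knockout, against 9.73 and 10.04 in the wild type, a difference of -2.15 that missed the threshold (95% interval -2.68 to -1.63, adjusted p = 0.051). It passed after cyclic loess (adjusted p = 0.049), and without clusters below the median level (adjusted p = 0.014). Of the other named complement genes, the factor I gene Cfi was at 3.60 and 4.27, against 2.90 and 3.23, and Masp1 at 5.23 and 5.75, against 5.55 and 5.82.

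**Figure D5:**
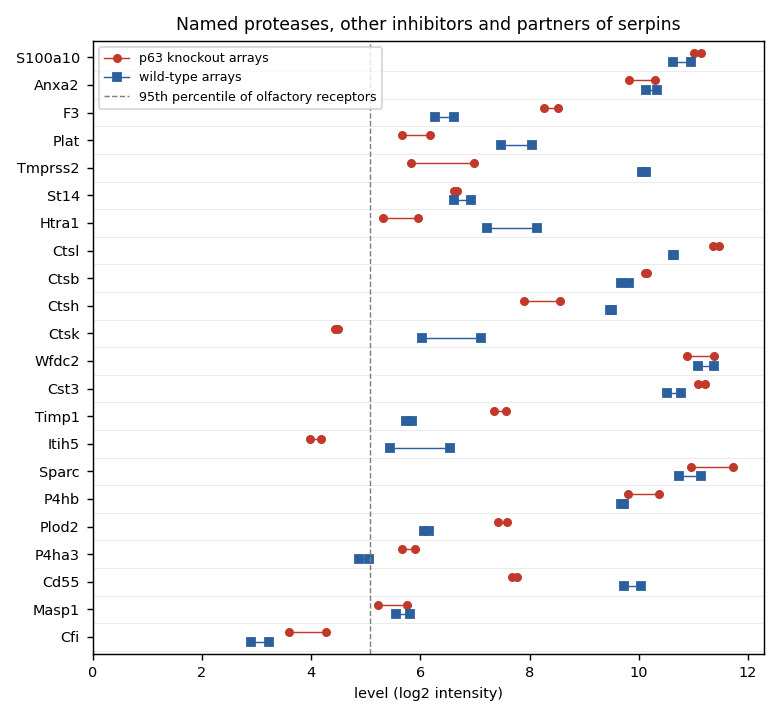
Levels (log2 intensity) of the named proteases, other inhibitors and partner genes on the 2 knockout arrays (red circles, upper line) and the 2 wild-type arrays (blue squares, lower line), with the guide level of 5.08 dashed. Tmprss2, Cd55, Plat, Htra1, Ctsk and Itih5 lie to the left in the knockout, and F3, Timp1 and Plod2 to the right.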

How the data were processed

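RNA of 2 p63 knockout and 2 wild-type samples was measured on 1 array each. The deposited table holds log2 intensities of 23332 transcript clusters, read as log2 from their range of 0.79 to 13.9. Expression Console of Affymetrix, Partek and build mm9 are named per the submitters' processing notes. Versions, summarisation and between-array normalization were not given in these sources. Array medians were 5.08 to 5.13, but lower quartiles were 4.06 and 4.06 in the knockout, against 3.80 and 3.82 in the wild type.

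Symbols came from GEO's platform annotation (14996 clusters with 1 symbol, 1019 with several, 7317 unnamed here), and all 33 serpin symbols matched RefSeq (GRCm38). Differences are knockout minus wild type from a two-sided eBayes test in limma 3.58.1 (R 4.3.3) after lmFit, without covariates or filter, adjusted by Benjamini-Hochberg over all clusters. The fit had 2 residual and 2.2 prior degrees of freedom and was tested on simulated data. The number of arrays limits the precision. Members and lists were chosen with earlier results of these data known. Serpins were named with array values if they passed adjusted p 0.05, differed by at least 1 without overlap, averaged at least 8 or had the highest mean of their clade. Partner genes were named if they passed, were among the 2 largest differences without overlap, or had the 2 highest means of a list. Serpins given beside these were added after their values were seen, as was the Serpina1 cluster. Promoter motifs were also chosen after the values were seen. The lists share some genes. Markers of smooth muscle (9 measured, median difference 0.32) and leukocytes (11 measured, 0.34) had 0 calls. Protein sequences were not used here. Alternatives were quantile and cyclic loess scaling, filters on dim clusters, a trended prior, the replicate number as a block, each array left out, and gene means.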

Additional observations from a re-analysis of the deposited data

Results flagged for a closer look

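The cluster annotated to the 5 Serpina1 genes together was above both wild-type arrays on both knockout arrays, in a row of the table that the comparison of single-symbol genes does not use. Its difference was 6.60 on the log2 scale, with 11.64 and 8.77 in the knockout, against 4.31 and 2.90 in the wild type, and it did not pass the limma test (adjusted p = 0.096). Over the alternatives the adjusted p ran from 0.046, without clusters below the median level, to 0.46, without wild-type replicate 1.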

How the results depend on the processing

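The 4 arrays limit every result here. Over all clusters, 123 calls (33 higher, 90 lower) became 362 (126 and 236) with the dimmest 25% of clusters filtered out, 524 (186 and 338) with the dimmer 50% filtered out and 303 (114 and 189) with a trended prior. The count was 0 in each direction with any 1 array left out, when the lone array of a group is assumed to vary like the others. The replicate block also gave 0 in each direction. Same-numbered arrays did not deviate together (correlation 0.02), so the numbers were not taken as pairs. The count of called serpins was likewise 0 with the replicate block and 0 to 0 with an array left out, and 3 (Serpinb1b, Serpinb5 and Serping1) in the fit on gene means. With the dimmer 50% filtered out the 1 called serpin was Serping1, since Serpinb1b was filtered out. The Serpinb1b difference was 2.28 with the replicate block (adjusted p = 0.14). The median serpin difference of 0.39 became 0.027 after quantile normalization, 0.047 after cyclic loess, 0.17 and 0.021 with the same 2 filters (18 and 8 serpins left), and 0.40 to 0.50 with an array left out. The median over all clusters, 0.12, was 0.0029 after quantile normalization. Serpinc1 turned to -0.078 after quantile normalization and -0.084 after cyclic loess, and Serpind1 to -0.12 and -0.15. With 1 array left out, Serpind1 ran from -0.29 (without knockout replicate 2) to 0.44 and was -0.0059 without wild-type replicate 1. Serpina3n ran from -1.47 to 0.23 and St14 from -0.29 to 0.017, both turning without wild-type replicate 1. Anxa2 ran from -0.41 to 0.073 (turned without knockout replicate 2), Masp1 from -0.45 to 0.067 (without knockout replicate 1), and Wfdc2 from -0.36 to 0.15 (without knockout replicate 2), with 0.041 without wild-type replicate 1. The cause was not tested. Of the 144 values of named serpins under alternatives, 129 kept direction and side of the threshold, 5 lost a call, 3 gained one and 7 turned. For named partner genes these counts were 195, 0, 17 and 5.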
